A study of Mus musculus with 15 samples.

Results

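The mRNA described here are 10 genes of the ATF4 and amino acid stress response, namely Atf4, Atf5, Atf3, Ddit3, Trib3, Chac1, Asns, Pycr1, Sesn2 and Ddit4. They were chosen by symbol, and all 10 were found among the 11262 mRNA of the first expression table and among the 11211 mRNA of the second. Both tables come from P14 CD8+ T cells of mice, which carry a transgenic T cell receptor (TCR) for the viral peptide gp33–41. The first table holds 3 biological replicates each of naive cells sorted ex vivo, of cells activated for 24 h (TCR), and of cells activated in the same way in the presence of 10 µM IC87114, an inhibitor of the catalytic subunit p110δ of phosphoinositide 3-kinase (PI3Kdi). Activation was by the peptide at 100 ng/ml together with IL-12 at 2 ng/ml and IL-2 at 20 ng/ml. For each replicate of this table the lymph nodes of 3 mice were pooled, and all 3 conditions were made from the same pool. Naive cells were gated as CD62L high and CD44 low, live CD8+ cells were sorted after activation, the inhibitor was dissolved in DMSO, and less total RNA was supplied for the naive libraries. The second table holds cytotoxic T lymphocytes (CTL), 3 replicates a group, which were activated for 48 h, expanded in IL-2 for 4 days and on day 6 kept either in 20 ng/ml IL-2 or without IL-2 for a further 24 h. Levels are FPKM, fragment counts scaled to exon length and to library size, so that the levels of different mRNA can be set side by side per length. The tables were normalised separately and no test was made across them. All cells carried the same transgenic receptor, and all groups but the naive cells had been exposed to IL-2.

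ATF4 is a transcription factor of the bZIP class that is controlled mainly at translation. When a kinase such as GCN2, which senses uncharged tRNA, or PERK, which senses unfolded protein in the endoplasmic reticulum (ER), phosphorylates the initiation factor eIF2α, most translation slows while the ATF4 reading frame is translated more, and the kinase mTORC1 can raise ATF4 without amino acid shortage. ATF4 then switches on genes for amino acid synthesis, amino acid import and tRNA charging, together with genes that limit growth or promote death if the stress lasts. In T cells, activation places a large demand on amino acids for protein synthesis. Because ATF4 is set mainly by translation, its mRNA is not a measure of its protein, and neither the protein nor eIF2α phosphorylation was measured here.

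ATF4 binds, as a dimer with a C/EBP or other bZIP partner, to C/EBP-ATF response elements (CARE), written here as TGATGNAA. The window from 250 bases before to 50 bases after each RefSeq gene start was searched on both strands, and a CARE was found in 5 of the 10 genes. It was found in 3.97% of all 32851 RefSeq windows of this length and in 2.14% of the 10321 windows of genes in the first table. The windows of these 5 genes are shown because they hold the element. Each sequence runs 5′ to 3′ on the strand of its gene, from 250 bases before to 25 bases after the start (RefSeq, build GRCm38.p6), and capitals mark the CARE.
Asns, chr6:7693185-7693459, minus strand: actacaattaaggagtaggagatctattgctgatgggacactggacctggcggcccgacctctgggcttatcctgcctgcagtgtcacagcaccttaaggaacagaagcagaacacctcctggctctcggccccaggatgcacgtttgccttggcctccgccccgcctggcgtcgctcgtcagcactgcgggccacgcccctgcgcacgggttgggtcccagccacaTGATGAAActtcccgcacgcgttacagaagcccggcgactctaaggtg
Pycr1, chr11:120643724-120643998, minus strand: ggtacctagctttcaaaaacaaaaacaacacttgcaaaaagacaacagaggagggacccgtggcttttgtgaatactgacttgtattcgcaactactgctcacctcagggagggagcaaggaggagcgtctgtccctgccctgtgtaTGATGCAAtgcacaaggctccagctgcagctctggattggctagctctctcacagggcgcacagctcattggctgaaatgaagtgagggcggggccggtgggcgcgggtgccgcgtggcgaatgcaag
Chac1, chr2:119350992-119351266, plus strand: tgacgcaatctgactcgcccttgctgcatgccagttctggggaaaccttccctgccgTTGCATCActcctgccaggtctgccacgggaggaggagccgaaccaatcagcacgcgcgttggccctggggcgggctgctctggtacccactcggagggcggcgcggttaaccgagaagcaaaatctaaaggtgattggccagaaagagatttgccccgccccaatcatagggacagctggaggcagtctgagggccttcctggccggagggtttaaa
Atf3, chr1:191183309-191183583, minus strand: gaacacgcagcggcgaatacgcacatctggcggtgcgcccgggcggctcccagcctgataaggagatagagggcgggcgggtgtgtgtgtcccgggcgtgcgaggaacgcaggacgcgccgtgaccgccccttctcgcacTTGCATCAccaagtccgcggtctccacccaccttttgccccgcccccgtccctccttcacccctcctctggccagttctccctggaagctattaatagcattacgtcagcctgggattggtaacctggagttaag
Trib3, chr2:152344036-152344310, minus strand: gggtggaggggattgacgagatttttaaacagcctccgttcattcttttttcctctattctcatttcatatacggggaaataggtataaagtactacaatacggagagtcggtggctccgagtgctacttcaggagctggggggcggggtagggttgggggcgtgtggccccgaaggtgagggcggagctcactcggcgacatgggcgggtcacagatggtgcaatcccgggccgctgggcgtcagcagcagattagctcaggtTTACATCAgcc

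The CARE of Asns lay on the gene strand at bases -23 to -16 from the start and that of Pycr1 at -103 to -96. Those of Atf3 (-110 to -103), Chac1 (-193 to -186) and Trib3 (15 to 22, within the transcript) lay on the opposite strand, so that the sequences above show its reverse complement. The windows of Atf4, Atf5, Ddit3, Sesn2 and Ddit4 held no match to these letters, which says nothing of the sequence outside them. An AP-1 element (TGANTCA) was found in Ddit3 alone, at -242 to -236, against 7.81% of all windows. The letters of a cAMP response element (TGACGTCA), an E-box (CACGTG), a FOXO site (GTAAACA) and a STAT site (TTCNNNGAA) were found in none of the 10 genes, against 1.79%, 7.15%, 3.65% and 8.3% of all windows. A match is a match of letters, and binding was not measured.

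**Figure D1:**
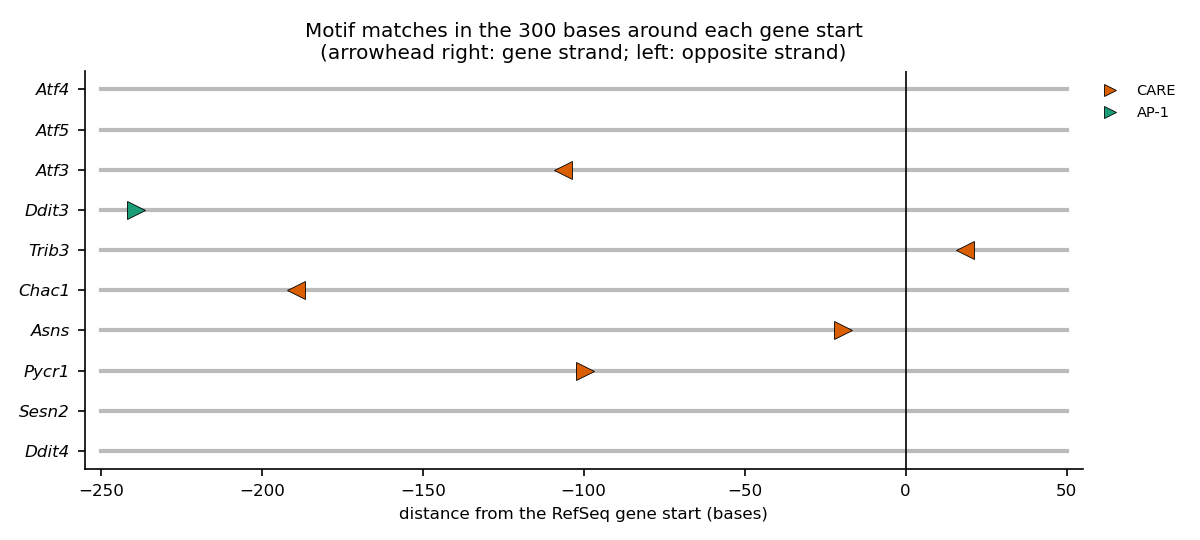
Position of motif matches, as distance in bases from the RefSeq gene start, in the window of 300 bases of each of the 10 genes; arrowheads to the right are on the gene strand and those to the left on the opposite strand. A CARE (orange) is seen in Atf3, Trib3, Chac1, Asns and Pycr1, and an AP-1 match (green) in Ddit3.

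The libraries carried the markers of their cells. The 7 CD8 T cell markers (Cd8a, Cd8b1, Cd3e, Cd3d, Cd3g, Cd247 and Lck) summed to 3796 to 4144 FPKM in naive cells, 876 to 919 in TCR activated cells, 1060 to 1212 with PI3Kdi, 1403 to 1458 in CTL with IL-2 and 2286 to 2534 without IL-2. Cd4, the red cell markers and Ncr1 were not listed in the first table. The CD4 T cell markers Zbtb7b and Foxp3 were, and summed to 0.1 to 0.37 FPKM in naive cells, 0.67 to 0.75 in TCR activated cells and 1.36 to 1.48 with PI3Kdi. In CTL, Cd4 and Zbtb7b summed to 16.75 to 21.36 FPKM with and 25.55 to 30.23 without IL-2. Most of this was Zbtb7b, as Cd4 was at 0.05 to 0.39 FPKM with and 0.92 to 1.92 without IL-2. The NK cell marker Klrb1c was at 1.2 to 1.88 FPKM in CTL with and 2.17 to 3.41 without IL-2. The 5 listed of 6 B cell markers summed to 13.6 to 29.2 FPKM in TCR activated cells and to 5.3 to 8.15 with PI3Kdi, and were at 25.8 to 45.8 in naive cells. In CTL, 2 of the 6 were listed (Cd74 and Cd79b), at 5.52 to 13.4 FPKM with and 19.1 to 31.1 without IL-2. The 3 listed of 10 myeloid markers (Cd68, Itgam and Cst3) summed to 39.5 to 60.8 FPKM in every group of the first table, and the 4 listed in CTL to 70.5 to 77.9 with and 107 to 113 without IL-2. Lyz2, Csf1r and Adgre1 were in neither table. Of the markers of stroma or endothelium only Pecam1 was listed. It was at 55.6 to 66 FPKM in naive cells, 2.25 to 3.49 in TCR activated cells and 4.73 to 8.2 with PI3Kdi. In CTL it was at 22.5 to 30.5 FPKM with and 50.3 to 62.4 without IL-2. The part of such cells in the results was not tested, and in bulk samples fewer cells of a type and less RNA per cell cannot be told apart. Between replicates of a group, Pearson r of log2(FPKM + 0.1) across genes was 0.979 to 0.990 in TCR activated cells and at least 0.987 in the other 4 groups. TCR replicate 1 stood apart for the genes described here, being the highest TCR library for 9 of the 10, so some of the results are also given without it.

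Each gene was tested with limma on log2(FPKM + 0.1) over all genes of its table, and is called higher or lower where its fold change was above 2 or below 0.5 and its Benjamini-Hochberg adjusted p under 0.05. The comparison of TCR activated with naive cells asks which mRNA antigen and cytokines raise within 24 h. Of the 10 mRNA, 7 were called higher and 2 lower, beside 25.0% of all mRNA tested called higher and 23.7% called lower (48.7% in either direction). The enzyme and stress genes Asns, Atf3, Chac1, Pycr1, Trib3 and Sesn2 rose together with Atf4 itself, and the 2 that fell were Ddit3, which encodes CHOP, and Ddit4, which encodes REDD1. The groups did not overlap for 9 of the 10, as for 80.7% of all mRNA. The median log2 fold change was 2.21 for the 10 mRNA and 0.01 for all mRNA.

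Atf4 (Entrez 11911, chr15:80255184-80257545) was the most abundant of the 10 in both naive and activated cells. It was at 95.9, 121 and 103 FPKM in naive replicates 1, 2 and 3 and at 373, 228 and 254 FPKM in the TCR activated ones. Every activated library was above every naive one, and replicate 1 was the highest. The means, 107 ± 12.8 and 285 ± 77 FPKM (SD, n = 3), differed 2.67-fold, with a log2 fold change of 1.39 (SE 0.17, adjusted p = 1.1e-05).

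Atf5 (Entrez 107503, chr7:44812256-44816658) encodes a related bZIP factor that is also controlled at translation. It was at 3.48, 3.26 and 4.06 FPKM in naive and at 6.23, 3.85 and 4.36 FPKM in TCR activated cells. The groups overlapped, and its log2 fold change of 0.39 (SE 0.20, adjusted p = 0.089) was not called. In the annotation, 82 of its 1993 exon bases also lie in exons of Nup62 on the opposite strand, and 82 in exons of Il4i1 on that strand. Nup62 rose after activation (log2 fold change 2.14, SE 0.09). It was not given whether the counting used the strand.

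Atf3 (Entrez 11910, chr1:191170296-191183333), a bZIP factor induced by many stresses and by ATF4, was blank in the table, and read as 0, in all 3 naive libraries. In TCR activated cells it was at 27.5, 17.8 and 20.6 FPKM, which is 22 ± 5 (SD, n = 3). It was called higher (adjusted p = 6.3e-11), and no fold is given against blank cells.

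Ddit3 (Entrez 13198, chr10:127290793-127296291), the factor through which prolonged ER stress promotes death, went the other way. It was at 18.2, 21.2 and 15.1 FPKM in naive cells and at 5.4, 2.83 and 6.21 FPKM after activation. All activated libraries were below all naive ones, and the mean was 3.77-fold lower (log2 fold change -1.95, SE 0.28, adjusted p = 4.6e-05). Of its 890 exon bases, 68 are shared with Mars on the opposite strand, and Mars rose after activation (log2 fold change 2.06, SE 0.09), in the opposite direction.

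Trib3 (Entrez 228775, chr2:152337425-152344060), a pseudokinase that is induced by ATF4 and CHOP and restrains them, was at 0.38, 0.98 and 0.52 FPKM in naive cells. In TCR activated cells it was at 11.3, 2.14 and 3.46 FPKM, above every naive library but with a spread of over 5-fold among replicates. The log2 fold change was 2.71 (SE 0.56, adjusted p = 8.4e-04), and 2.04 without TCR replicate 1, where all 9 calls of this comparison were kept.

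Chac1 (Entrez 69065, chr2:119351242-119354326), a glutathione-degrading enzyme, was blank, and read as 0, in all naive libraries and was at 6.17, 1.57 and 1.98 FPKM in TCR activated ones. It was called higher (adjusted p = 8.3e-05), with replicate 1 again the highest.

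Asns (Entrez 27053, chr6:7675165-7693209), asparagine synthetase, was near absent from naive cells, blank in 1 library and at 0.04 FPKM in the other 2, and reached 27.8, 8.97 and 9.98 FPKM after activation. The rise was called (adjusted p = 3.9e-08). Its size depends on the pseudocount, with log2 fold changes from 3.84 to 8.86 over 11 alternatives.

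Pycr1 (Entrez 209027, chr11:120638998-120643748), which makes proline in mitochondria, rose from 0.11, 0.1 and 0.14 FPKM to 2.91, 1.76 and 1.37 FPKM. The groups were far apart relative to their spread, with a log2 fold change of 3.22 (SE 0.28, adjusted p = 8.4e-07).

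Sesn2 (Entrez 230784, chr4:132492804-132510456), a leucine sensor that restrains mTORC1, rose from 2.12, 1.97 and 2.4 FPKM to 13, 5.71 and 5.24 FPKM. Its log2 fold change was 1.72 (SE 0.31, adjusted p = 3.4e-04), and every activated library was above every naive one.

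Ddit4 (Entrez 74747, chr10:59949675-59951770), a further brake on mTORC1 that is also induced by hypoxia and glucocorticoids, fell. It was at 66.6, 46.5 and 51.9 FPKM in naive cells and at 24, 8.02 and 9.52 FPKM in TCR activated cells. The mean was 3.97-fold lower and the groups did not overlap (log2 fold change -2.14, SE 0.34, adjusted p = 1.1e-04). Of the 2 mTORC1 brakes among the 10 mRNA, activated cells held more Sesn2 and less Ddit4 mRNA.

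**Figure D2:**
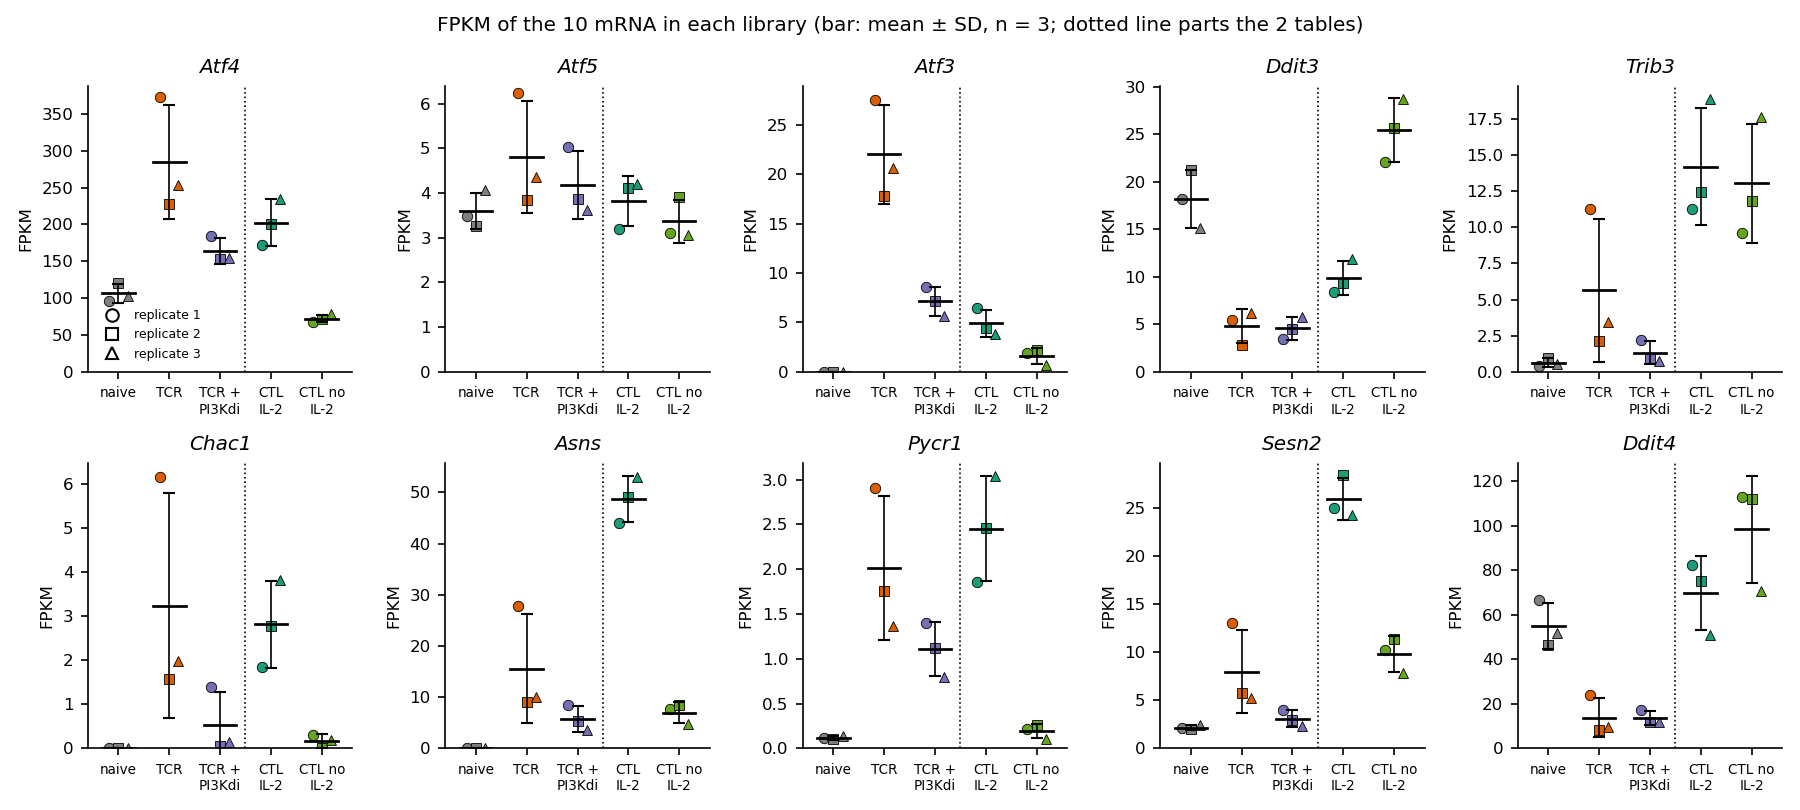
FPKM of each of the 10 mRNA in all 15 libraries, with 1 panel per gene on a linear axis from 0; points are libraries (circle, square and triangle for replicates 1, 2 and 3) and bars are the mean ± SD of 3. Atf3 and Chac1, blank in naive cells, are drawn at 0 there, Ddit3 and Ddit4 are lower in TCR activated than in naive cells, and TCR replicate 1 is the highest TCR library for 9 of the 10.

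The comparison of activated cells with and without PI3Kdi asks what p110δ activity contributes to these levels, and it uses the same TCR libraries as the comparison above. With PI3Kdi 4 of the 10 mRNA were called lower, Atf3, Chac1, Sesn2 and Trib3, and 0 higher, beside 2.10% of all mRNA called lower and 3.04% called higher (5.14% in either direction). At an unadjusted p under 0.05, 7 of the 10 differed, as did 31.5% of all mRNA. The median log2 fold change was -1.01 for the 10 mRNA and -0.01 for all mRNA, and the groups did not overlap for 5 of the 10 (Atf4, Atf3, Asns, Chac1 and Sesn2) and for 36.7% of all mRNA. The count of 4 was not steady. It was 5 with the replicate number as a block, and also 5, these 4 and Asns, with replicate 1 left out of every group. It was 1, Atf3, without TCR replicate 1 alone, an alternative chosen after seeing the data that keeps the PI3Kdi library of the same pool. It was also 1 without replicate 2, without replicate 3 and in a fit of the activated groups alone.

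Atf3 was at 8.54, 7.16 and 5.67 FPKM with PI3Kdi, and all 3 libraries were below the lowest TCR library, 17.8 FPKM. The means differed 3.09-fold, the log2 fold change was -1.61 (SE 0.20, adjusted p = 3.3e-04), and over 11 alternatives it lay between -1.76 and -1.43 and was always called.

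Chac1 was at 1.39, 0.05 and 0.15 FPKM with PI3Kdi. Replicate 1 with the inhibitor came close to TCR replicates 2 and 3, and no library overlapped. Its log2 fold change of -2.87 (SE 0.73, adjusted p = 0.021) was no longer called in 4 of 11 alternatives, including the one without TCR replicate 1 (-2.29, adjusted p = 0.06).

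Sesn2 was at 4, 2.96 and 2.29 FPKM with PI3Kdi, below every TCR library. The log2 fold change was -1.25 (SE 0.31, adjusted p = 0.019). Without TCR replicate 1 it was -0.84 with an adjusted p of 0.024, so that the difference kept its adjusted p under 0.05 and fell under the 2-fold limit.

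Trib3 was at 2.23, 0.99 and 0.76 FPKM with PI3Kdi. The highest of these overlapped the lowest TCR library, at 2.14 FPKM. The call rested on a log2 fold change of -1.79 (SE 0.56, adjusted p = 0.049) and was lost in 7 of 11 alternatives.

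Asns narrowly missed the threshold. It was at 8.38, 5.28 and 3.52 FPKM with PI3Kdi, each below the lowest TCR library, 8.97 FPKM, with a log2 fold change of -1.32 (SE 0.41, adjusted p = 0.0505). With the replicate number as a block it was called (adjusted p = 0.04). Without TCR replicate 1 its log2 fold change was -0.80 (adjusted p = 0.11). With replicate 1 left out of every group it was -1.12 (adjusted p = 0.03), and Asns was called.

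Atf4 mRNA was lower in each pair of libraries with the same replicate number, at 185, 153 and 155 FPKM with PI3Kdi, and the groups did not overlap. Its log2 fold change of -0.77 (SE 0.17, adjusted p = 0.0097) had an adjusted p under 0.05, as had 8.19% of all mRNA on the lower side, but was under the 2-fold limit. Without TCR replicate 1 it was -0.56 (adjusted p = 0.01). Pycr1, at 1.4, 1.12 and 0.8 FPKM, was also lower in 3 of 3 pairs, and was not called (log2 fold change -0.77, SE 0.28, adjusted p = 0.086).

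The remaining 3, Atf5, Ddit3 and Ddit4, were not called. Atf5 was at 5.04, 3.86 and 3.63 FPKM, Ddit3 at 3.42, 4.46 and 5.81 FPKM and Ddit4 at 17.1, 11.7 and 11.7 FPKM with PI3Kdi. Their log2 fold changes were -0.18 (SE 0.20), -0.03 (SE 0.28) and 0.12 (SE 0.34), with adjusted p-values from 0.57 to 0.95, and each changed sign in at least 1 alternative. Without TCR replicate 1, the highest Ddit4 library, the log2 fold change of Ddit4 was 0.60 (SE 0.19, adjusted p = 0.054). Over all 10 mRNA, 7 were lower with PI3Kdi in 3 of 3 pairs, as were 27.3% of all mRNA.

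**Figure D3:**
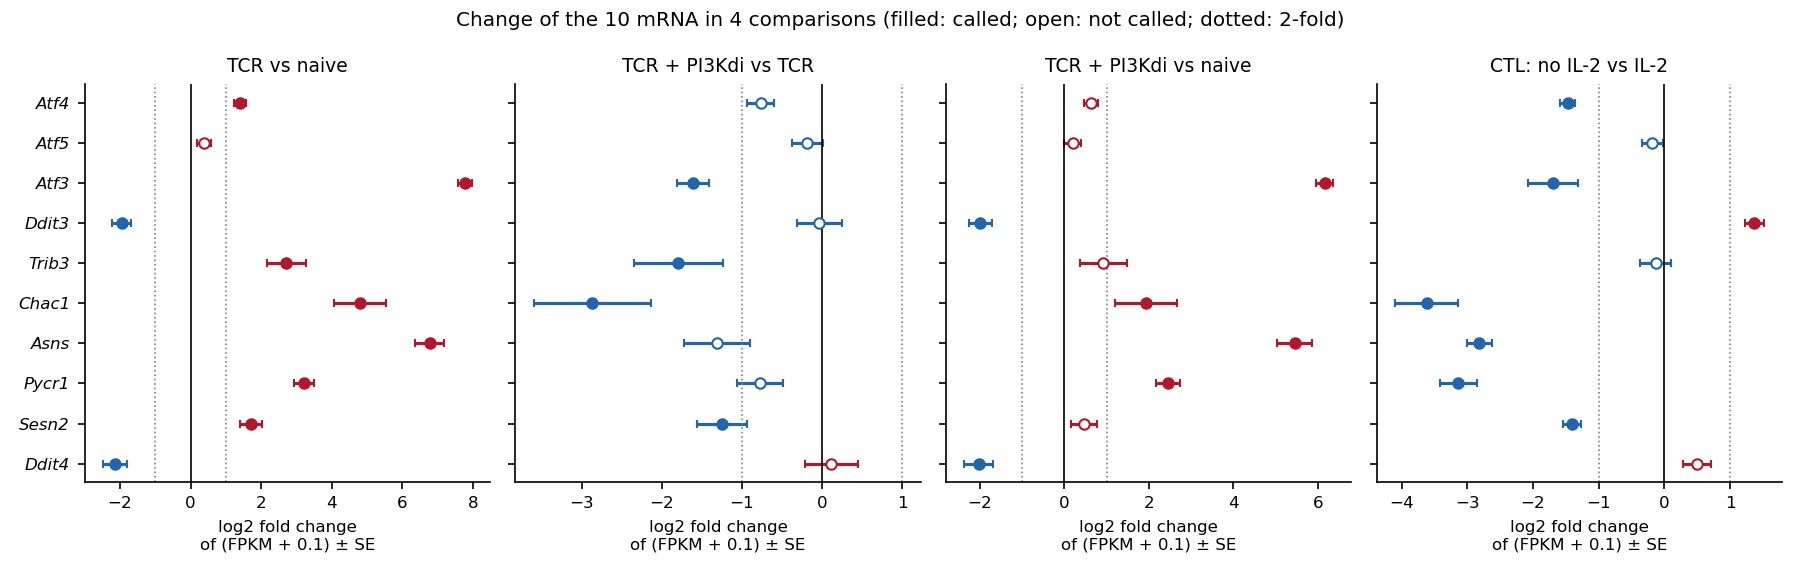
Log2 fold change of FPKM + 0.1 with its standard error for the 10 mRNA in 4 comparisons, with filled points called, open points not called and dotted lines at 2-fold; the axes differ between panels. Ddit3 and Ddit4 lie to the left of 0 in both comparisons with naive cells, and in CTL without IL-2 Ddit3 lies to the right while 6 mRNA are called lower.

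Cells activated with PI3Kdi were also compared with naive cells, which asks what activation did while p110δ was inhibited. Asns, Atf3, Chac1 and Pycr1 were called higher and Ddit3 and Ddit4 lower, beside 23.6% of all mRNA called higher and 21.3% lower (45.0% in either direction). Atf3 and Chac1 are blank in naive cells, and the call of Chac1 (adjusted p = 0.03) was lost in 3 of 10 alternatives. Pycr1 was 9.49-fold higher on means (log2 fold change 2.45, SE 0.28, adjusted p = 1.0e-05), and with a pseudocount of 1 its log2 fold change was 0.91 and under the 2-fold limit. Atf4 was 1.54-fold higher (log2 fold change 0.62, SE 0.17, adjusted p = 0.0048), under the 2-fold limit, though every library with PI3Kdi was above every naive one. Trib3 (log2 fold change 0.92, SE 0.56, adjusted p = 0.15) and Sesn2 (0.46, SE 0.31, adjusted p = 0.19) were not called and overlapped naive cells, as was Atf5 (0.20, SE 0.20, adjusted p = 0.36). The falls of Ddit3 (log2 fold change -1.99, SE 0.28) and Ddit4 (-2.03, SE 0.34) were close in size to those without the inhibitor, -1.95 and -2.14. These comparisons share the naive libraries. The median over the 10 mRNA was 0.77, against 0.00 over all mRNA, and the groups did not overlap for 7 of the 10 and for 82.9% of all mRNA.

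The second table compared CTL kept without IL-2 for 24 h with CTL kept in IL-2, which asks which mRNA depend on the cytokine. Here 6 of the 10 mRNA were called lower, namely Asns, Pycr1, Chac1, Atf3, Atf4 and Sesn2, and Ddit3 was called higher, beside 13.9% of all mRNA called lower and 14.3% called higher (28.2% in either direction). The median log2 fold change was -1.44 for the 10 mRNA and 0.00 for all mRNA. The count was 7 in each of 11 alternatives, and each of the 7 was called in every alternative that gave its value. The groups did not overlap for those 7, as for 76.1% of all mRNA. Trib3, Atf5 and Ddit4 were not called.

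The mRNA for Atf4 was at 172, 201 and 235 FPKM in CTL with IL-2 and at 67.3, 71.9 and 77.9 FPKM without it. The replicates were tight and far apart between groups, with a log2 fold change of -1.47 (SE 0.11, adjusted p = 3.5e-06), a 2.8-fold fall on means.

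Among the enzymes, Asns was at 44, 49.1 and 53 FPKM with IL-2, and at 7.66, 8.54 and 4.76 FPKM without it. The mean fell 6.97-fold (log2 fold change -2.82, SE 0.19, adjusted p = 1.6e-06). Pycr1 was at 1.86, 2.46 and 3.04 FPKM with and at 0.22, 0.26 and 0.1 FPKM without IL-2, a mean 12.7-fold lower (log2 fold change -3.14, SE 0.28, adjusted p = 8.3e-06). Both are enzymes of amino acid synthesis, and neither had a library without IL-2 within the range with IL-2.

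Chac1 was at 1.85, 2.78 and 3.82 FPKM with IL-2 and at 0.31, 0 and 0.19 FPKM without it. It fell (log2 fold change -3.62, SE 0.48, adjusted p = 1.1e-04), and with values this low the size moved between -4.97 and -1.69 over the alternatives. Atf3 was at 6.48, 4.42 and 3.86 FPKM with and at 1.86, 2.21 and 0.67 FPKM without IL-2 (log2 fold change -1.69, SE 0.38, adjusted p = 0.0027). The groups did not overlap for either mRNA.

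Sesn2 was at 25, 28.4 and 24.3 FPKM with IL-2 and at 10.2, 11.4 and 7.79 FPKM without. It fell 2.64-fold on means (log2 fold change -1.41, SE 0.14, adjusted p = 1.6e-05). Ddit4 was at 82.7, 75.4 and 50.9 FPKM with and at 113, 112 and 70.6 FPKM without IL-2. It was higher without IL-2 in 3 of 3 pairs by 1.37 to 1.49 times, but the groups overlapped and it was not called (log2 fold change 0.50, SE 0.21, adjusted p = 0.06). With the replicate number as a block its SE was 0.083 and its adjusted p 4.1e-04, and it stayed under the 2-fold limit. The mRNA of these mTORC1 brakes again had estimates of opposite sign.

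Ddit3 was at 8.39, 9.29 and 11.9 FPKM with IL-2 and rose to 22, 25.6 and 28.7 FPKM without it. The ratios within replicate numbers were 2.62, 2.76 and 2.41, and the log2 fold change was 1.37 (SE 0.14, adjusted p = 2.4e-05). Its neighbour Mars fell (log2 fold change -1.73, SE 0.08). Ddit3 and Atf4 moved apart in this comparison, as they did on activation.

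Trib3 was not called without IL-2. It was at 11.3, 12.5 and 18.8 FPKM with IL-2 and at 9.63, 11.8 and 17.6 FPKM without, and within replicate numbers the ratios were 0.854, 0.949 and 0.936. Its log2 fold change was -0.13 (SE 0.24, adjusted p = 0.63), and the libraries of the groups were interleaved. Atf5, at 3.19, 4.11 and 4.2 FPKM with and 3.11, 3.92 and 3.07 FPKM without IL-2, was not called either (log2 fold change -0.18, SE 0.16, adjusted p = 0.33).

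**Figure D4:**
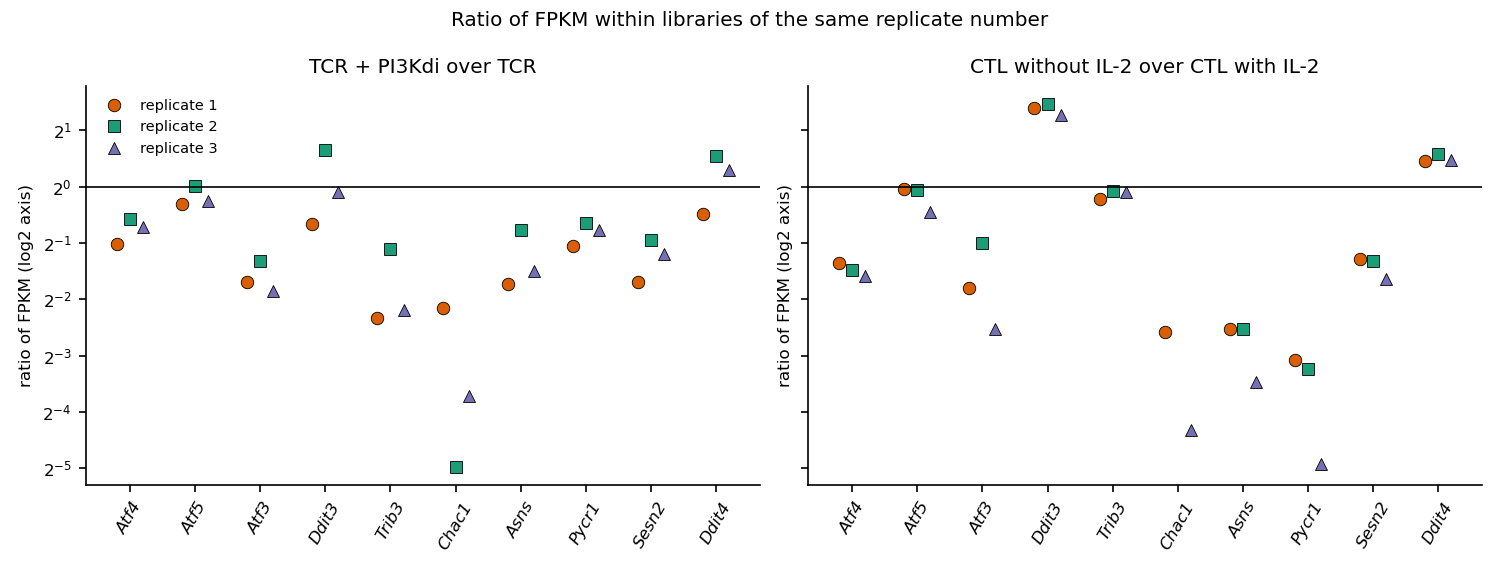
Ratio of FPKM within libraries of the same replicate number, on a log2 axis, for TCR activated cells with PI3Kdi over those without (left) and for CTL without IL-2 over CTL with IL-2 (right); Chac1 of CTL replicate 2 was listed at 0 without IL-2 and is not drawn. In CTL the 3 ratios of Ddit3 lie between 2.41 and 2.76 and those of Trib3 just under 1, while Asns and Pycr1 lie far below 1.

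Set side by side, the 10 mRNA did not share an order of levels over the 5 groups. Asns was highest in CTL with IL-2, at 48.7 ± 4.49 FPKM (SD, n = 3), followed by TCR activated cells at 15.6 ± 10.6, CTL without IL-2 at 6.99 ± 1.98, cells with PI3Kdi at 5.73 ± 2.46 and naive cells at 0.0267 ± 0.0231. Of these neighbours, CTL without IL-2 and cells with PI3Kdi overlapped. Pycr1 had its highest means in CTL with IL-2, 2.45 ± 0.59 FPKM, and in TCR activated cells, 2.01 ± 0.801, which overlapped. Sesn2 was likewise highest in CTL with IL-2, at 25.9 ± 2.2 FPKM, and its TCR activated libraries overlapped CTL without IL-2, at 9.8 ± 1.84. Trib3 was at 14.2 ± 4.07 and 13 ± 4.14 FPKM in CTL with and without IL-2, and in each of its neighbouring groups the ranges overlapped. These are levels from tables normalised apart, so only their order is described.

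Atf4 ran from 285 ± 77 FPKM in TCR activated cells through 202 ± 31.6 in CTL with IL-2, 164 ± 17.9 with PI3Kdi and 107 ± 12.8 in naive cells to 72.4 ± 5.29 in CTL without IL-2, and its upper 3 groups overlapped from neighbour to neighbour. Atf3 had its highest mean in TCR activated cells. Ddit3 had nearly the reverse order, with 25.4 ± 3.32 FPKM in CTL without IL-2, 18.2 ± 3.05 in naive cells, 9.85 ± 1.81 in CTL with IL-2, 4.81 ± 1.76 in TCR activated cells and 4.56 ± 1.2 with PI3Kdi, and only the last 2 overlapped. Ddit4 was highest in CTL without IL-2, at 98.5 ± 24.2 FPKM, and lowest with PI3Kdi, at 13.5 ± 3.11. Atf5 varied least, between 3.37 ± 0.48 and 4.81 ± 1.25 FPKM, and every neighbouring group overlapped.

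TCR replicate 1 was the highest of its group for 9 of the 10, Ddit3 being the exception, where it was the highest for 37.3% of 9775 mRNA with a mean of at least 1 FPKM in the group. Its level over the mean of replicates 2 and 3 was 4.03 for Trib3, 3.48 for Chac1, 2.93 for Asns, 2.73 for Ddit4 and 2.38 for Sesn2, and this ratio was above 2 for 1.48% of the 9775 mRNA, whose median was 0.986. With PI3Kdi, replicate 1 was also the highest for the same 9 mRNA, against 32.1% of 9872 mRNA, with ratios of 1.2 to 1.9 for Atf4, Atf5, Atf3, Ddit4, Asns, Sesn2 and Pycr1, 2.55 for Trib3 and 13.9 for Chac1. Replicate 1 of both groups came from the same pool by the study's protocol. In naive cells the highest library was replicate 1 for 1 of the 10. What set this replicate apart was not tested.

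The rest of the pathway was followed with lists that leave out the 10 mRNA. Their counts stand beside 25.0% of all mRNA called higher and 23.7% lower on activation, 3.04% and 2.10% with PI3Kdi, and 14.3% and 13.9% in CTL without IL-2. A first list held 10 genes for eIF2 kinases, their activators, eIF2α and its phosphatase subunits. Its kinases Eif2ak1, Eif2ak2, Eif2ak3 and Eif2ak4 were not called on activation, with PI3Kdi or in CTL without IL-2. On activation their changes were under the 2-fold limit, with adjusted p under 0.05 for Eif2ak4 (log2 fold change 0.86), Eif2ak1 (0.19) and Eif2ak3 (-0.84). In CTL without IL-2 the same was true of Eif2ak2 (-0.63) and Eif2ak3 (0.50). Eif2ak3, which encodes PERK, was called lower when cells with PI3Kdi were compared with naive cells (log2 fold change -1.07, SE 0.18, adjusted p = 1.8e-04), a call lost in 3 of 10 alternatives. Eif2s1, which encodes eIF2α, rose from 31.6 ± 3.01 to 137 ± 16.8 FPKM (SD, n = 3) on activation and fell from 85.5 ± 1.29 to 32 ± 3.27 FPKM in CTL without IL-2, with log2 fold changes of 2.11 and -1.42. Ppp1r15a, the inducible phosphatase subunit GADD34 that restores eIF2, was lower after activation, at 17.1 ± 1.88 against 44.7 ± 18.3 FPKM (log2 fold change -1.31, adjusted p = 1.6e-04), and was not called without replicate 2. With PI3Kdi, limma called 0 of the 10, and 1 had an unadjusted p under 0.05.

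Amino acid transporters of the ATF4 programme rose on activation in 7 of 8 listed genes and fell without IL-2 in 8 of 9, with list medians of 2.54 and -2.18 on the log2 scale. The largest rises were in Slc1a4, a carrier of alanine, serine and cysteine, from 0.26 ± 0.15 to 9.48 ± 6.38 FPKM, and in Slc6a9, a glycine carrier, which reached 4.36 ± 4.49 FPKM. Without IL-2 the largest falls were in Slc7a3, a carrier of cationic amino acids (log2 fold change -3.39, SE 0.38), and Slc6a9 (-3.27, SE 0.26). Without TCR replicate 1, 5 of the 8 were called on activation. With PI3Kdi 1 of the 8 was called lower, Slc1a4 at 2.91 ± 1.28 FPKM (log2 fold change -1.55, SE 0.46, adjusted p = 0.041). This call was lost in 6 of 11 alternatives, of which 1 left out TCR replicate 1. The list median with PI3Kdi was -0.69, and 5 of 8 had an unadjusted p under 0.05, against 31.5% of all mRNA.

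Enzymes that make serine, glycine, proline or asparagine, or use them in linked steps, were called higher on activation in 11 of 13 genes and lower without IL-2 in 8 of 11. Cth, which makes cysteine from cystathionine, was blank, and read as 0, in naive cells and was at 5.2 ± 2.51 FPKM after activation and 0.61 ± 0.28 with PI3Kdi (log2 fold change -2.87 between the activated groups, SE 0.34, adjusted p = 2.6e-04). Mthfd2, of mitochondrial folate metabolism, was at 177 ± 12.3 FPKM in TCR activated cells and 88.6 ± 9.8 with PI3Kdi (adjusted p = 2.1e-04). It was just past the 2-fold limit, and its call was lost in 3 of 11 alternatives, including the one without TCR replicate 1. Cth and Mthfd2 were the 2 of 13 called lower with PI3Kdi. The list median with PI3Kdi was -0.36, and 8 of 13 had an unadjusted p under 0.05. Without IL-2, Gpt2, an alanine aminotransferase, and Psat1, of serine synthesis, fell (log2 fold changes -3.11 and -2.31).

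Cytosolic aminoacyl-tRNA synthetases and the tRNA exporter Xpot rose on activation in 12 of 13 genes and fell without IL-2 in 12 of 13. The medians were 2.05 and -1.41. With PI3Kdi limma called 0 of 13, the median was -0.35 and 10 of 13 had an unadjusted p under 0.05. Under the 2-fold limit, Cars, Gars, Iars, Nars, Tars and Yars were lower and Wars higher with an adjusted p under 0.05. On the lower side 8.19% of all mRNA had such a p. Aars went from 14.6 ± 1.65 to 79.8 ± 13.8 FPKM on activation (log2 fold change 2.44, SE 0.13), and in CTL without IL-2 Tars and Mars fell (log2 fold change -1.73 each).

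The ER unfolded protein response outside ATF4 rose in 10 of 17 genes and fell in 2 on activation, and fell in 10 of 17 without IL-2. Sdf2l1, an ER cochaperone, rose from 9.13 ± 2.03 to 68.3 ± 6.93 FPKM, and Dnajb9 and Dnajc3, whose products also act in ER folding and its control, fell (log2 fold changes -1.30 and -1.09, the latter not called under median scaling). In CTL without IL-2, Hspa5, the main ER chaperone BiP, fell from 426 ± 36.5 to 90.1 ± 7.4 FPKM (log2 fold change -2.24, SE 0.09). With PI3Kdi limma called 0 of 17, and 5 had an unadjusted p under 0.05. In CTL without IL-2, Ddit3 was higher and Hspa5 lower.

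Of 16 other stress genes linked to ATF4 or CHOP, 4 rose and 6 fell on activation, which is close to the share of all mRNA for the rises, and the list median of 0.01 was that of all mRNA. They include Eif4ebp1, which encodes a translation repressor (4.64 ± 0.6 to 61.2 ± 34.1 FPKM), and Bbc3, which encodes the death promoter PUMA (13.7 ± 1.1 to 0.84 ± 0.27 FPKM). Without IL-2 5 of 20 rose and 5 fell. Bbc3 rose from 7.71 ± 3.15 to 29.5 ± 4.58 FPKM (log2 fold change 2.01, SE 0.29). Nupr1, a stress-induced chromatin factor, and Stc2, a secreted glycoprotein, fell (log2 fold changes -3.68 and -2.37). The pseudokinase Trib2 was 42.9 ± 1.61 FPKM in naive cells, 5.55 ± 1.18 after activation and 42.6 ± 3.65 with PI3Kdi (log2 fold change 2.93 between the activated groups, SE 0.13, adjusted p = 1.2e-06), unlike its relatives Trib3 and Trib1, which were called lower with PI3Kdi. It also rose without IL-2, from 0.38 ± 0.08 to 2.92 ± 0.58 FPKM.

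A further list held 13 other genes for mTORC1 brakes, amino acid sensors and proteins that act with them (Wdr24, Wdr59 and Mios, which are not brakes). Of these 13, 4 were lower and 0 higher on activation. With PI3Kdi 1 was higher, Gatsl2 (log2 fold change 1.07, SE 0.24, adjusted p = 0.012), a call lost in 2 of 11 alternatives. Sesn1, a relative of Sesn2 that is known as a FOXO and p53 target, went from 27.4 ± 0.82 to 4.16 ± 0.51 FPKM and in CTL rose without IL-2 from 21.5 ± 6.31 to 45.5 ± 1.03 FPKM (log2 fold change 1.13, SE 0.19), a call lost without replicate 3. Sesn1 and Sesn2 were called in opposite directions in both comparisons. Of 15 genes linked to FOXO, glucocorticoids or p53, 6 were higher and 1 lower with PI3Kdi, and 8 were higher and 1 lower without IL-2. The 1 that was lower was Cdkn1a both times. Among them Tsc22d3, a glucocorticoid and FOXO target, was at 1.77 ± 0.58 FPKM without and 8.03 ± 3.83 with PI3Kdi. Of 13 other ATF, CREB and C/EBP factors, 3 were higher and 3 lower on activation, close to the shares of all mRNA, and Batf3, a bZIP factor of effector T cells, was at 69.9 ± 17.3 FPKM without and 19.2 ± 5.27 with PI3Kdi (log2 fold change -1.87, SE 0.22, adjusted p = 2.6e-04). Bach1, a repressor of the same class, was called higher both with PI3Kdi (log2 fold change 1.08, SE 0.21) and without IL-2 (adjusted p = 6.3e-06), and the call with PI3Kdi was lost in 4 of 11 alternatives, 1 of them without TCR replicate 1.

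**Figure D5:**
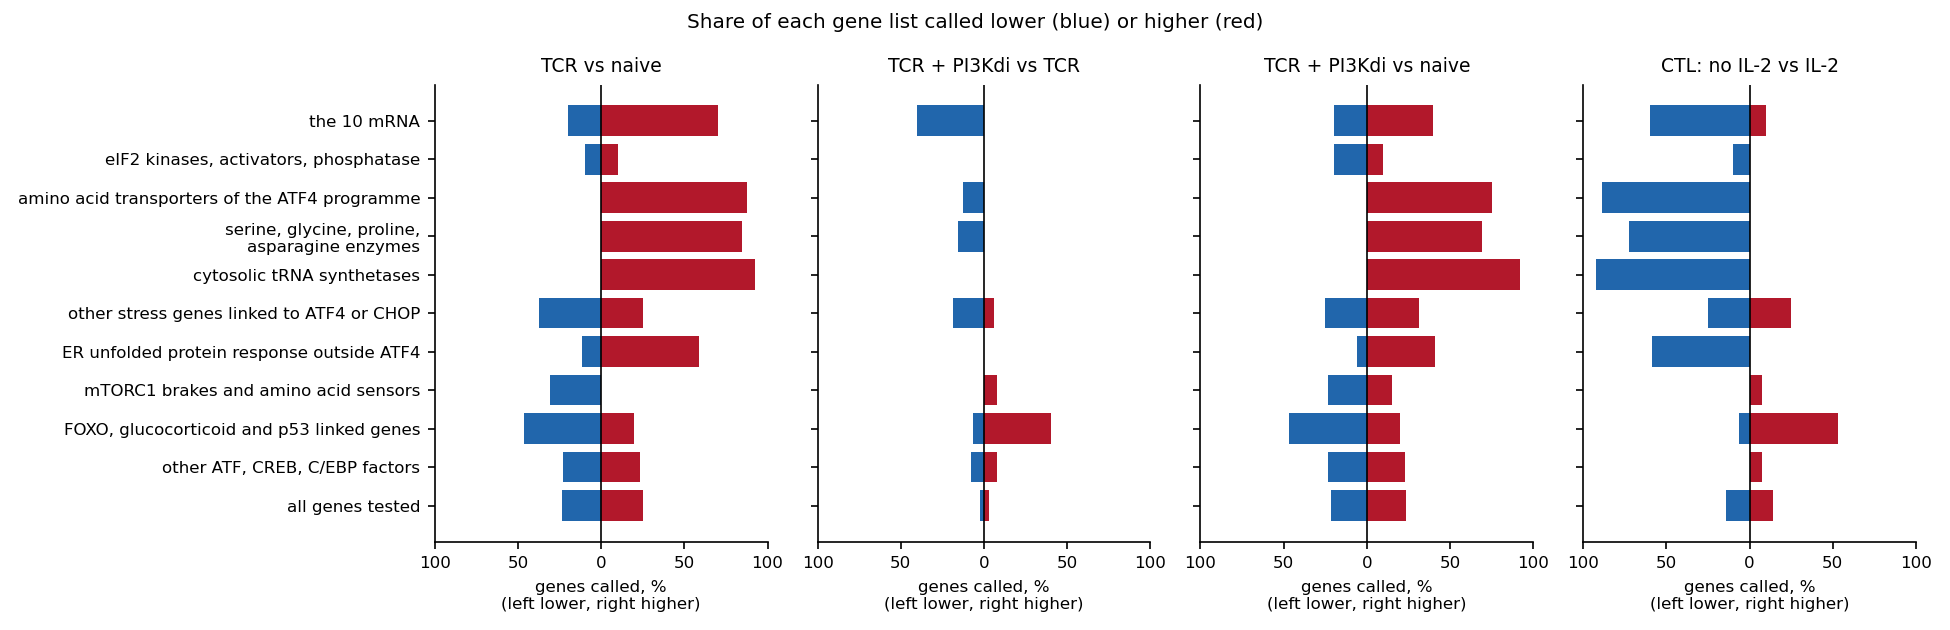
Percent of each gene list called lower (blue, to the left) or higher (red, to the right) in 4 comparisons, with the 10 mRNA at the top and all genes tested at the bottom. Transporters, synthesis enzymes and tRNA synthetases lie almost wholly to the right on activation and to the left in CTL without IL-2, and their bars are short or absent for PI3Kdi.

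The mRNA most like each of the 10 were found over 9625 genes with a mean of at least 1 FPKM in both tables, by the mean of Pearson r over the 9 and over the 6 libraries. The libraries of a table share its groups, so that r mainly reflects the group means and is given as a description. Asns was most like Slc25a1 (r = 0.994 and 0.998), then Pycr1 (0.994 and 0.997) and Slc7a5 (0.994 and 0.997), and Pycr1 was most like Asns, then Eif4ebp1 and Tbl2. Atf4 was most like Tmem39a (0.983 and 0.991), which was also among the 3 nearest of Chac1 and Sesn2, followed by Pmvk and Elovl1. Atf3 was nearest to Tube1, Cpsf3l and Ezh2, and Sesn2 to Il24 (0.958 and 0.987), Tmem39a and Nsdhl. Ddit3 was nearest to Mndal (0.970 and 0.997), H2-Q4 and 5031425E22Rik, and Ddit4 to Pqlc3, Ephx1 and Iffo2. Chac1 was nearest to Erp44 (0.957 and 0.972), followed by Tmem39a and Lipg. Trib3 (Zfp11, Csnk2a2 and Plek) and Atf5 (Brd3, 5930416I19Rik and Lmf2) had no gene with a mean r over 0.872. Between Atf4 and the others, r over the 9 libraries was 0.954 for Chac1, 0.965 for Trib3 and 0.908 for Asns, and over the 6 CTL libraries 0.941, 0.352 and 0.962, while for Ddit3 it was -0.69 and -0.90.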

How the data were processed

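The authors deposited FPKM with 2 decimals. Per the methods and labels, stranded mRNA reads were aligned to mm10 with STAR 2.5.2b, counted per RefSeq gene with Subread 1.5.1 (use of strand is not given in the sources used here), filtered with filterByExpr, normalised by TMM and scaled to the exon length of each gene, overlaps left out. The same steps were assumed for CTL, which the paper does not report. The 1039 blank cells of the first table were read as 0. The treatment labels of 2 CTL libraries kept in IL-2 name other interleukins, and these were grouped by title.

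The fit used limma 3.58.1 in R 4.3.3 on log2(FPKM + 0.1) with an intensity trend and no block, the 9 libraries of the first table in one fit and the 6 CTL libraries in another, with Benjamini-Hochberg adjustment over all genes. Fold changes on this scale understate the change of low mRNA, and p-values measure the spread between 3 replicates a group, pooled over the groups of a fit. Naive libraries that were blank, as for Atf3, Chac1 and Cth, add no spread to that pool. For Chac1 with PI3Kdi the SE was 0.73, and 0.86 with only the activated groups in the fit. On simulated data with 200 genes changed by a log2 value of 3, 100% (TCR against naive, 11262 genes) and 99.5% (PI3Kdi against TCR, 11262 genes) were recovered. Promoter windows and gene positions are from RefSeq on GRCm38.p6 and exon overlaps from GENCODE on the same assembly. Python 3.11.15 with numpy 2.4.6, pandas 2.3.3 and matplotlib 3.10.9 was used.

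Replicate numbers were taken as pairs, in the first table because each pool was divided between conditions. In CTL they were taken because every r was over 0.1, so pairing there is inferred from these same data. Deviations from group means had r of 0.203 to 0.506 between TCR and PI3Kdi libraries of the same number (-0.453 to 0.191 for other numbers). In CTL r was 0.123 to 0.257 (-0.201 to 0.0912 for other numbers). Between naive and TCR libraries r was -0.181 to 0.226 (-0.306 to 0.378 for other numbers). Deviations of 3 replicates sum to 0, so these ranges are linked. Read totals are not given. Low values gave a rough 9800000 to 14600000 reads per library, but only 39.6% to 56.7% of them lay within 0.1 of a whole read against 20% at random, so reads were not recovered and no detection limit was taken.

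The 10 genes, the gene lists and the markers were chosen with earlier results of these data known. Named list genes were the 2 largest rises and falls called per list and comparison, some of which are printed. The kinases Eif2ak1 to Eif2ak4 and the tRNA synthetases with PI3Kdi were named outside that rule after their values were seen. So were Mars and Nup62 on activation, as the neighbours of Ddit3 and Atf5. Alternatives were pseudocounts of 1 and 0.01, a filter at a mean FPKM of 1, median scaling, a replicate block, no trend, leaving out each replicate, other fold limits and a fit of only the groups compared.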

Additional observations from a re-analysis of the deposited data

How the results depend on the processing

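Of 410 values of the 10 mRNA under alternatives, 382 kept their direction and their side of the threshold, 19 were no longer called, 5 became called and 4 changed sign, and the causes were not tested. The sign changes were with PI3Kdi and in mRNA that were not called: with a replicate left out, the log2 fold change of Ddit3 lay between -0.37 and 0.27 (0.27 without replicate 1, 0.08 without TCR replicate 1), that of Ddit4 between -0.10 (without replicate 2) and 0.60 (without TCR replicate 1), and that of Atf5 between -0.28 and 0.013 (without TCR replicate 1). The number of the 10 mRNA called stayed at 9 for activation and at 7 for CTL without IL-2 in each alternative. With PI3Kdi it was 1 with only the activated groups in the fit, and 1 to 5 with a replicate left out. The fits without TCR replicate 1, without replicate 2 and without replicate 3 gave 1, and the fit without replicate 1 in any group gave 5. For cells with PI3Kdi against naive cells it was 4 to 7.

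The number of all mRNA called for PI3Kdi, 579, was 311 with a pseudocount of 1, 1120 with a fold limit of 1.5 and 1975 with none, and 323 to 581 with a replicate left out (323 without replicate 2). With no fold limit, 9096 were called for activation, 8906 for PI3Kdi against naive and 8056 for CTL without IL-2, and with a limit of 1.5, 5657 in CTL. With the replicate number as a block, Asns was called lower with PI3Kdi (adjusted p = 0.04) and no other call of the 10 mRNA changed, the counts of all mRNA being 5495, 591, 5071 and 3168. Of 84 named values of other list genes, 71 kept their call in each alternative and 0 changed sign. Read depth is not known well enough to say which low values it limits.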
